A study of Rattus norvegicus with 7 samples.

Results

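Metabotropic glutamate (mGlu) receptors were followed here in the brains of rats bred to drink or to avoid alcohol. The list held 7 genes, Grm2 to Grm8, and a member was any transcript probe whose RefSeq accession belongs to one of them. This gave 6 probes for 5 genes (Grm4, Grm5, Grm6, Grm7 and Grm8), of 33849 transcript probes in all, of which 7207 could be given a gene name. Grm5 had 2 probes. No probe matched Grm2 or Grm3 by this rule, so the group II receptors were not analysed here. The rule used accessions and no measured value.

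Glutamate is the main excitatory transmitter of the brain. Besides opening ion channels it acts on mGlu receptors, class C receptors coupled to G proteins, which tune transmission rather than carry it. Group I receptors, here Grm5, couple to Gq, phospholipase C and calcium release and sit mostly around the postsynaptic density, held by Homer proteins. Group III receptors, here Grm4, Grm6, Grm7 and Grm8, couple to Gi/o, lower cAMP and, in the brain, mostly sit on nerve terminals, where they reduce release. Grm6 is the exception, best known from the ON bipolar cells of the retina. Signalling by mGlu receptors has been studied widely as a control of alcohol drinking in rodents.

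The samples were whole brains of adult male rats from 2 lines of Wistar origin, obtained by selective breeding, without exposure to alcohol and housed in pairs. There were 4 alcohol-preferring rats (P 1 to P 4) and 3 alcohol non-preferring rats (NP 2 to NP 4), with 1 array per rat; the authors dropped a further NP array for its quality. The labels name no litter, gene or allele behind the lines, so a difference between them is a difference between selected populations. In P rats 77.9% to 81.6% of transcript probes lay above background, and in NP rats 81.5% to 85.9%. Beside the tissue label, 13 marker lists of brain cells, brain regions, pituitary and blood were read. Of 76 listed genes 54 were tested, which already required a signal above background on at least 3 arrays. On all 7 arrays 48 of the 54 lay above background, beside 4639 of 5677 tested named genes. This count therefore cannot check the tissue label. Among the 48 were all 7 astrocyte, 6 of 7 oligodendrocyte and 2 of 4 neuronal markers. A spot flagged as masked, irregular or contaminated was counted as not above background. Stmn2 (neurons) and Mog (oligodendrocytes) missed the count in this way alone, being above background wherever they kept a value. A second Stmn2 probe, GE13571, was above background on all 4 P and all 3 NP arrays. The neuronal marker Snap25 was above background on 1 of 4 P and 2 of 3 NP arrays. The header of each array's scanner data carries a date, taken here as the scan date. By it, P 1, P 2, NP 2 and NP 3 shared the first of 3 dates. NP 4 had the second, and P 3 and P 4 the third. Scan date is therefore shared by the lines on the first date alone. A fit with a term for scan date thus takes its difference between the lines from P 1, P 2, NP 2 and NP 3. All values are log2 normalized intensities unless stated, differences are P minus NP with their standard error (SE), and a difference was called at an adjusted p under 0.05. In whole tissue, fewer cells of a type and less RNA per cell cannot be told apart.

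The comparison of the lines asks whether these receptors differ before any alcohol is drunk. None of the 5 tested member probes was called by limma (Benjamini-Hochberg over 29003 probes), where 0.29% of all tested probes were called, 84 in number. At an unadjusted p under 0.05 there was 1 of 5, a weak Grm5 probe, beside 11.5% of all probes. The 4 tested probes with a value on every array all read values in P rats that overlapped those in NP rats. Over the whole array, 13.3% of such probes did not overlap. The estimates were 0.09, 0.07 and 0.16 for Grm4, the stronger Grm5 probe and Grm7, and -0.30 for Grm6. The number of arrays limits the precision of each. Grm8 was not tested, since its probe was above background on 1 array.

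**Figure D1:**
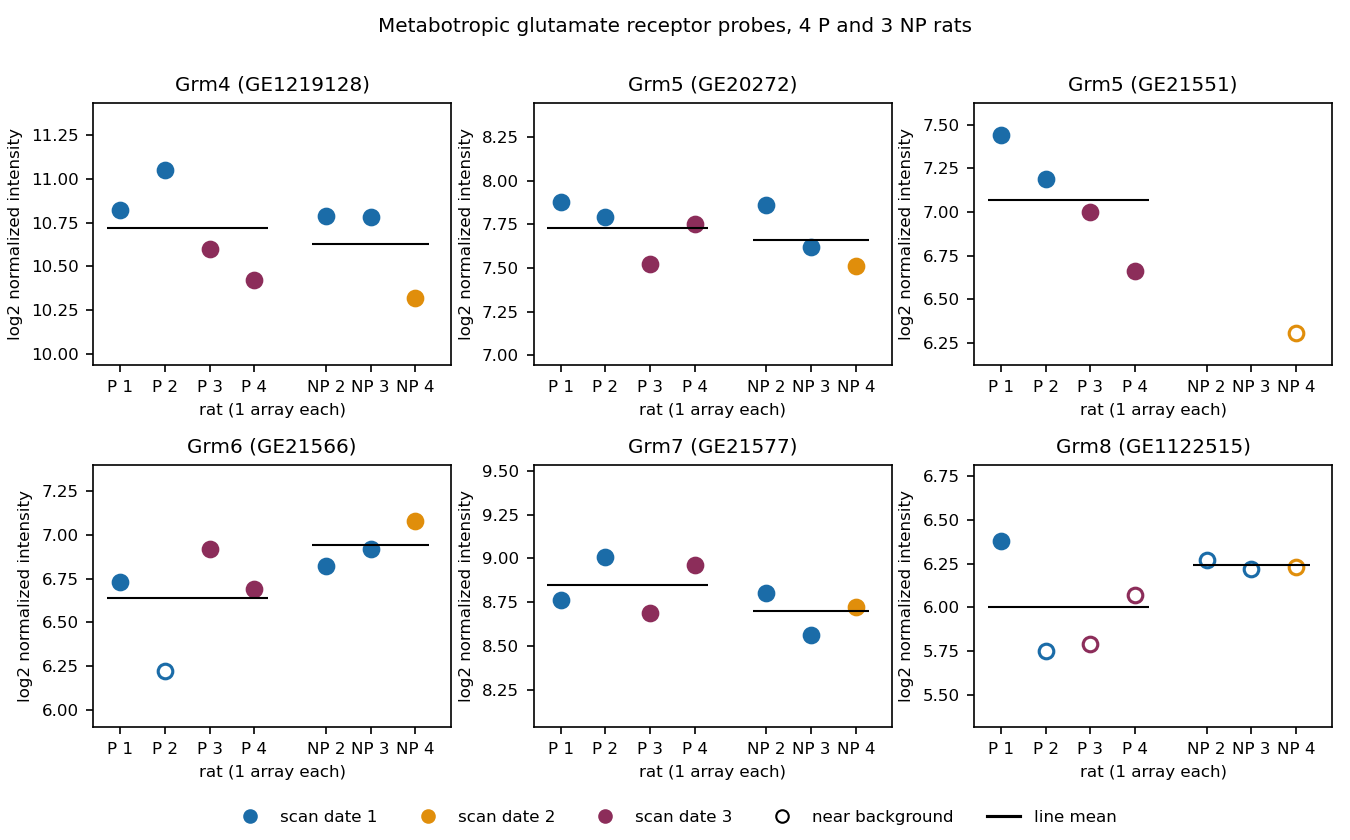
Log2 normalized intensity of the 6 mGlu receptor probes (y axes, each spanning the same range) in the 4 P rats and the 3 NP rats (x axis); colour gives the scan date, open circles lie near background, and lines are means. P and NP points overlap for Grm4, Grm5 GE20272, Grm6, Grm7 and Grm8, and for Grm5 GE21551 NP 4 alone gave a usable NP value.

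Grm4 encodes mGlu4, a presynaptic group III receptor known for its high level at the parallel fibre terminals of cerebellar granule cells. Its probe GE1219128 read 10.82, 11.05, 10.60 and 10.42 in P 1 to P 4. In NP 2, NP 3 and NP 4 it read 10.79, 10.78 and 10.32. The highest value was thus that of P 2 and the lowest that of NP 4, and the lines overlapped over most of their range. The means were 10.72 ± 0.28 in P (SD, n = 4) and 10.63 ± 0.27 in NP (SD, n = 3). The difference was 0.09 ± 0.18 (95% interval -0.30 to 0.49, adjusted p = 0.847 by limma), or a ratio between 0.812 and 1.4. It turned negative without P 2 (-0.02) and without NP 4 (-0.06).

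Among the 4 tested member probes with 7 values, Grm4 was the one whose values separated by scan date. On date 1 it read 10.78 to 11.05 in both lines, and on the other dates 10.32 to 10.60, with no overlap. Of all tested probes with 7 values, 12.3% separated the dates in this way. Within the P line, P 1 and P 2 averaged 10.94 and P 3 and P 4 averaged 10.51. The difference of 0.43 ± 0.18 missed the threshold (adjusted p = 0.132 by limma), in a comparison that called 14% of all probes. The separation was also present in the authors' processed values, with 4.08 to 4.42 on date 1 and 3.63 to 3.92 on the other dates. It was absent with each array scaled to its median instead of quantile normalized, where the ranges were 10.67 to 11.00 and 10.40 to 10.76. It was absent as well before any scaling, where spot minus background ran from 1540 to 1660 on date 1 and from 1320 to 2020 on the other dates.

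Cerebellar markers were read beside Grm4, because granule cells are rich in it. Gabra6, a GABA-A receptor subunit of granule cells, read 9.79, 9.61, 9.99 and 9.79 in P 1 to P 4, against 10.02, 9.89 and 10.02 in NP 2 to NP 4. P 2, the rat with the highest Grm4 value, thus had the lowest Gabra6 value. Zic1, a transcription factor of granule cells, was highest in P 2, with 9.19, 9.26, 8.78 and 9.11 in P 1 to P 4, against 8.80, 8.54 and 8.81 in NP 2 to NP 4. Neurod1, another such factor, was also highest in P 2 on its brighter probe (10.35), while its second probe, GE1276559, was lower on date 1 than on date 3 in the P rats (-0.71 ± 0.16, adjusted p = 0.0164 by limma). The markers thus did not share one order over the rats. The mean of the 4 cerebellar markers with 7 values was 9.90 to 10.17 in the P rats and 10.18 to 10.30 in the NP rats. The genes went both ways: the difference between the lines was -0.40 for Pcp4, -0.40 for Calb1 and -0.18 for Gabra6, and 0.14 for Neurod1 and 0.37 for Zic1. Of these 5, each on its brightest probe, 0 were called between the lines (2, Pcp4 and Zic1, at an unadjusted p under 0.05), and 0 between the scan dates of the P rats. With a term for scan date Calb1 was called (-0.73, adjusted p = 0.0416), and Zic1 was not (0.56, adjusted p = 0.061) but was on the arrays of date 1 alone (adjusted p = 0.0474). The part of cerebellar tissue in the Grm4 values was not tested. Fitted with a term for scan date, the Grm4 difference between the lines was 0.15 ± 0.14 (adjusted p = 0.517).

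Grm7 encodes mGlu7, the presynaptic group III receptor of active zones throughout the brain, which answers to high glutamate alone. Probe GE21577 read 8.76, 9.01, 8.69 and 8.96 in P 1 to P 4, against 8.80, 8.56 and 8.72 in NP 2 to NP 4. The 2 highest values were those of P 2 and P 4 and the lowest was that of NP 3, while P 1 and P 3 lay among the NP values. The means were 8.85 ± 0.15 in P (SD, n = 4) and 8.70 ± 0.12 in NP (SD, n = 3). The difference was 0.16 ± 0.13 (95% interval -0.12 to 0.44, adjusted p = 0.624 by limma), or a ratio between 0.919 and 1.36. It was positive under all 17 alternatives, between 0.09 and 0.21, and passed the threshold under none. Grm7 was also the member that varied least with the scan date, with P 1 and P 2 at a mean of 8.89 and P 3 and P 4 at 8.82 (difference 0.06 ± 0.16, adjusted p = 0.831 by limma).

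Grm5 encodes mGlu5, the group I receptor of forebrain neurons and, in young brain, of astrocytes. Its stronger probe, GE20272, read 7.88, 7.79, 7.52 and 7.75 in P 1 to P 4, against 7.86, 7.62 and 7.51 in NP 2 to NP 4. Each line held a value near the top and a value near the bottom of the common range. The means were 7.73 ± 0.15 in P (SD, n = 4) and 7.66 ± 0.18 in NP (SD, n = 3). The difference was 0.07 ± 0.13 (95% interval -0.23 to 0.37, adjusted p = 0.847 by limma), a ratio between 0.855 and 1.29. Without NP 4 it was -0.01. Between P 1 with P 2 and P 3 with P 4 the difference was 0.20 ± 0.16 (adjusted p = 0.421).

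The second Grm5 probe, GE21551, carries the same transcript accession as the first. It read 7.44, 7.19, 7.00 and 6.66 in P 1 to P 4, all above background, against 6.31 in NP 4, which was near background. The spots of NP 2 and NP 3 carried outlier flags, contaminated and masked, and were left out. The mean was 7.07 ± 0.33 in P (SD, n = 4). The fitted difference of 0.77 was not called (adjusted p = 0.382 by limma), ran from 0.35 to 1.52 over 13 alternatives, and rests on 1 NP spot, to which 41.8% of the negative control spots on its array were equal or brighter. Spot minus background was 55.1 to 112 in the P rats, and in the spots left out it was 137 in NP 2 and 78.1 in NP 3, above and within the range of the P rats. No difference between the lines is read from this probe. Within the P line this probe averaged 7.32 on date 1 and 6.83 on date 3, a difference of 0.49 ± 0.17 (adjusted p = 0.0851). NP 4 was the sole array of date 2, so for this probe line and scan date cannot be told apart and no fit with both could be made.

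**Figure D2:**
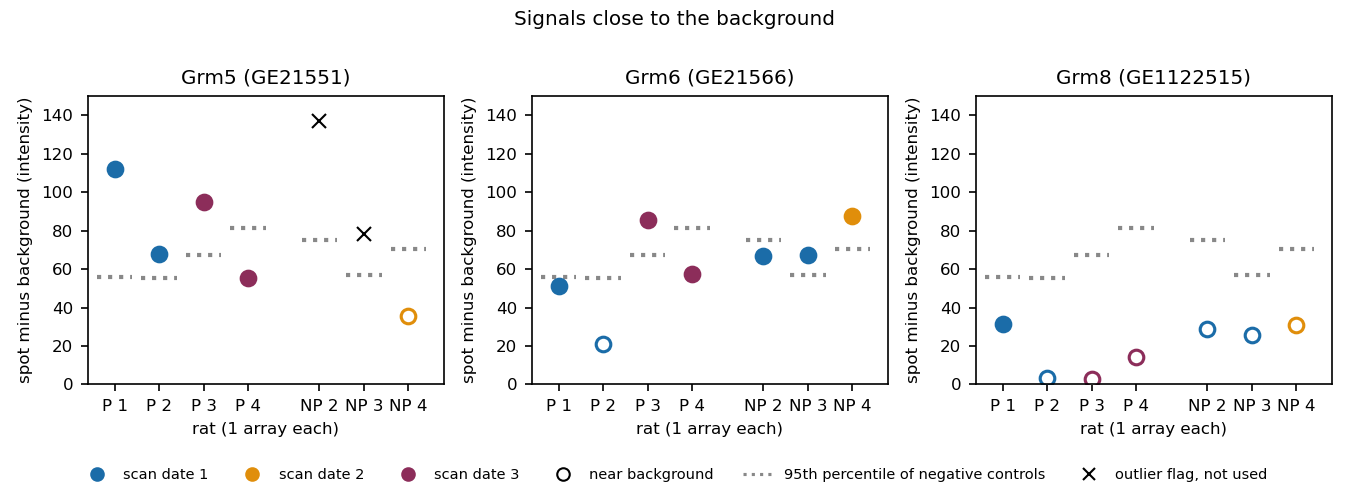
Spot minus local background, in intensity units not scaled between arrays (y axis), for the weaker Grm5 probe, Grm6 and Grm8 in the 4 P rats and the 3 NP rats (x axis); dotted bars give the 95th percentile of 256 negative control spots on the same array, and crosses mark spots with an outlier flag. All 7 Grm8 spots lie below that percentile, and the 2 crossed Grm5 spots of NP rats lie within or above the range of the P rats.

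Grm6 encodes mGlu6, which in ON bipolar cells of the retina keeps the channel Trpm1 shut in the dark. Probe GE21566 gave a weak signal in brain. It read 6.73, 6.22, 6.92 and 6.69 in P 1 to P 4, against 6.82, 6.92 and 7.08 in NP 2 to NP 4. P 2 stood lowest and was the one array near background, NP 4 stood highest, and P 3 lay among the NP values. The means were 6.64 ± 0.30 in P (SD, n = 4) and 6.94 ± 0.13 in NP (SD, n = 3). The difference was -0.30 ± 0.17 (95% interval -0.67 to 0.06, adjusted p = 0.486 by limma), or a ratio between 0.629 and 1.05. Without P 2 it was -0.16. In a fit with a term for scan date it was -0.40 ± 0.17 (adjusted p = 0.186). That fit called 5.72% of all probes and 0 of the 4 member probes with a value. On the arrays of date 1 alone, where 6.47% of all probes and 6.37% of named genes were called, none of these 4 was called either.

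The level of Grm6 was close to that of spots that match no rat transcript. In the P rats, spot minus background was 21 to 85.3, and 4 to 160 of the 256 negative control spots on the same array were at least as bright. In the NP rats it was 66.9 to 87.8, with 3 to 16 negative controls at least as bright. All 7 Grm6 values thus fell within the range of the negative controls, and a difference at this level is a difference between signals of that size. P 3, NP 3 and NP 4 (85.3, 67.4 and 87.8) lay above the 95th percentile of the controls on their arrays (67.2, 56.9 and 70.2). The other Grm6 spots lay below it. The brightest controls also reached the stronger Grm5 probe, with up to 6 at least as bright on an array, and Grm7, with up to 2.

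Retinal and pineal genes were read beside Grm6. Of 14 listed, 6 had a tested probe; Trpm1, Nyx, Gpr179 and other ON bipolar genes of the list had none. None of the 6 was called, and 3, Sag, Asmt and Crx, had an unadjusted p under 0.05. Sag, the arrestin of photoreceptors and pinealocytes, read 7.33, 7.63, 7.37 and 7.33 in P 1 to P 4, against 7.26, 8.60 and 8.99 in NP 2 to NP 4. Asmt, the last enzyme of melatonin synthesis, read 6.52, 6.82, 6.58 and 6.66 in P 1 to P 4, against 6.73, 7.30 and 7.63 in NP 2 to NP 4. NP 3 and NP 4 were thus the highest on both genes, as they were, with P 3, on Grm6. The differences were -0.87 ± 0.33 for Sag (adjusted p = 0.382) and -0.57 ± 0.19 for Asmt (adjusted p = 0.342, both by limma), and Sag was called once NP 2 was left out. Aanat, the enzyme that sets the nightly rhythm of melatonin, differed by 0.03 ± 0.14. The part of pineal tissue in the Grm6 values was not tested.

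Grm8 encodes mGlu8, a presynaptic group III receptor found at low levels in many regions. Its probe GE1122515 read 6.38, 5.75, 5.79 and 6.07 in P 1 to P 4, with P 1 above background. It read 6.27, 6.22 and 6.23 in NP 2 to NP 4, all near background. On every array 91 or more of the 256 negative controls were at least as bright, up to 244 in P 3. The spot of P 1, at 31.6 above its background, also lay below the 95th percentile of the controls on its array, 55.9. Neither line thus gave a Grm8 signal from which a difference could be measured, and none is given.

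**Figure D3:**
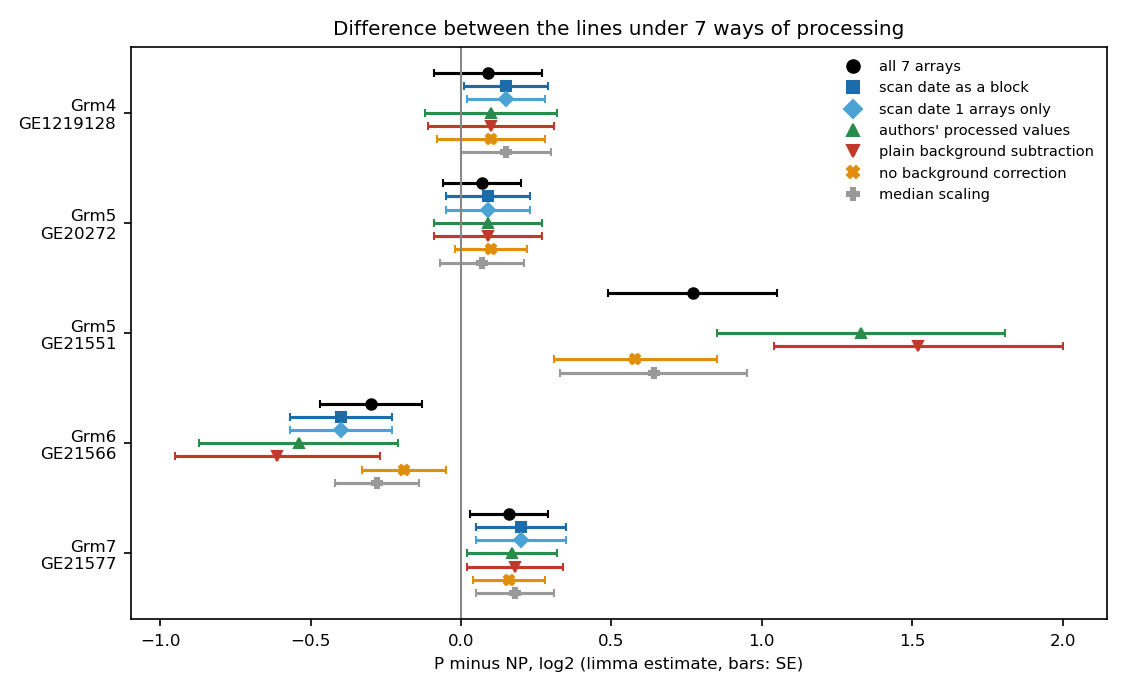
P minus NP difference in log2 (x axis; points are limma estimates, bars their SE) for the 5 tested mGlu receptor probes (rows) under 7 ways of processing. Grm4, Grm5 GE20272 and Grm7 lie between 0.07 and 0.20 and Grm6 between -0.61 and -0.19; no estimate passed an adjusted p of 0.05, and Grm5 GE21551 rests on 1 NP array and has no estimate where scan date is taken into account.

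The background correction mattered for the dim members and little for the bright ones. The Grm6 difference was -0.61 ± 0.34 with plain subtraction, -0.54 ± 0.33 in the authors' processed values and -0.19 ± 0.14 with no background correction. That of the weaker Grm5 probe was 1.52, 1.33 and 0.58 in the same order. For Grm4, the stronger Grm5 probe and Grm7, plain subtraction gave 0.10, 0.09 and 0.18. The adjusted p of all 5 was 0.175 or higher under every alternative tried.

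Genes whose values were most like those of each member over the 7 arrays were sought among 5295 other named genes, as a description. Grm4 was most like Dlst (r = 0.976), a subunit of the oxoglutarate dehydrogenase of the citric acid cycle. Dlst read 9.97 to 10.30 in P and 9.92 to 10.25 in NP. The stronger Grm5 probe was most like Plec (r = 0.982), the cytoskeletal linker plectin, which read 9.33 to 10.49 in P and 9.52 to 10.41 in NP. Grm6 was most like Gpalpp1 (r = 0.98) and Grm7 most like Defa24 (r = 0.946). For Grm4, 11 genes reached an r over 0.95, for Grm5 16, for Grm6 12 and for Grm7 0. None of these 4 genes was called between the lines. The 7 arrays behind each r include some that share a scan date. Each named gene had the highest of 5295 correlations over these few arrays, and no r was tested.

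The machinery around the receptors was read from 6 lists with 97 entries, of which 61 genes were tested, each on its brightest probe. None was called between the lines by limma (5 at an unadjusted p under 0.05: Calm3, Plcb4, Sag, Asmt and Crx), where 0.176% of named genes were called and 11.4% had such an unadjusted p. The median difference over the 61 genes was 0.03, the same as over all 5677 named genes. For 5 of the 57 genes with 7 values the lines did not overlap, beside 13.3% of all such probes: Calm3, Plcb4, Gnai3, Rgs7 and Crx.

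Of 12 tested proteins that bind mGlu receptors or their scaffold, 7 had a positive difference and the median was 0.06. Calm3, one of the genes for calmodulin, which binds the tails of mGlu5 and mGlu7, had the smallest p. It averaged 12.34 ± 0.13 in P (SD, n = 4) and 12.02 ± 0.20 in NP (SD, n = 3), a difference of 0.32 ± 0.13 (adjusted p = 0.414 by limma); a second Calm3 probe, GE1302299, differed by 0.07 ± 0.19. With a term for scan date the first Calm3 probe differed by 0.12. The Homer genes, which tie mGlu5 to the postsynaptic scaffold, differed by -0.20 ± 0.21 (Homer1), 0.08 ± 0.12 (Homer2) and 0.13 ± 0.15 (Homer3).

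Below Grm5, the 13 genes of the Gq and calcium pathway had a median of -0.01. Plcb4, a phospholipase C activated by Gq, had the smallest p of the 6 lists. It read 10.14, 10.12, 10.23 and 10.03 in P 1 to P 4, against 10.49, 10.59 and 10.39 in NP 2 to NP 4. Every P rat lay below every NP rat, with a difference of -0.36 ± 0.11 (adjusted p = 0.324 by limma). With a term for scan date it was -0.41 (adjusted p = 0.0891), and between the scan dates of the P rats 0.00 ± 0.14. Gnaq, the G protein subunit itself, differed by -0.07 ± 0.14, and Itpr1, the calcium release channel of neurons, by -0.05 ± 0.11.

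Below the group III receptors, the 16 genes of Gi/o proteins, adenylyl cyclases and channels also had a median of -0.01. Gnai3, an inhibitory G protein subunit, had the smallest p there, with each gene on its brightest probe. It averaged 7.53 ± 0.19 in P (SD, n = 4) and 7.84 ± 0.19 in NP (SD, n = 3), a difference of -0.32 ± 0.14 (adjusted p = 0.434 by limma). The second Gnaz probe, GE1217582, had a smaller p and the other sign (0.27 ± 0.12, adjusted p = 0.429 by limma). Among 11 receptor kinases and RGS proteins on their brightest probes, Rgs7, which speeds Gi/o shutdown, had the smallest p (-0.20 ± 0.12, adjusted p = 0.505 by limma). A second Grk3 probe, GE21859, had a smaller p (-0.22 ± 0.12, adjusted p = 0.484), but was above background on 1 of 4 P arrays. Among 3 other class C receptors the smallest p was that of Gabbr2, a GABA-B subunit (-0.30 ± 0.14, adjusted p = 0.45).

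**Figure D4:**
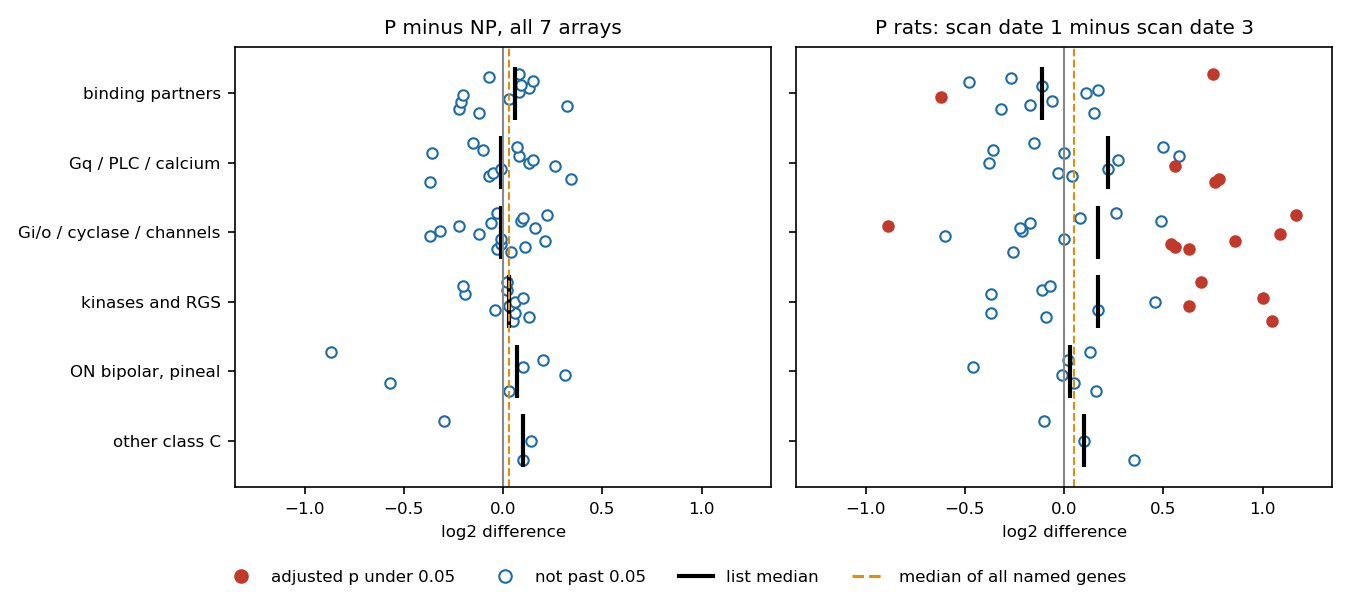
Log2 differences (x axes) of tested genes in 6 lists of the mGlu receptor machinery (rows; each point is a gene), for P minus NP over all arrays on the left and for P rats of scan date 1 minus P rats of scan date 3 on the right. No gene passed an adjusted p of 0.05 on the left, while 14 passed with positive and 2 with negative differences on the right; ticks are list medians and the dashed line is the median of all named genes.

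Some genes of these lists differed between the P rats of the 2 scan dates. Of 60 genes, 14 were higher and 2 lower in the date 1 pair (P 1, P 2) than in the date 3 pair (P 3, P 4) by limma, or 26.7%, where 15.6% of named genes were called; the difference between these shares was not tested. These genes were named after their values were seen. Higher in P 1 and P 2 were Gng7, the G protein subunit of striatal adenylyl cyclase signalling (1.17 ± 0.20, adjusted p = 0.00498), Gnai2 (1.09 ± 0.19, adjusted p = 0.00547) and Grk2, the kinase that desensitizes many receptors (1.05 ± 0.19, adjusted p = 0.00626). A second Grk2 probe, GE21858, differed by 0.35 ± 0.15 (adjusted p = 0.134). Shank3, a scaffold under the Homer proteins, read 11.22 and 11.14 in P 1 and P 2, against 10.44 and 10.43 in P 3 and P 4 (0.75 ± 0.15, adjusted p = 0.00945). Homer1 went the other way, with 9.60 and 9.55 in P 1 and P 2, against 10.25 and 10.14 in P 3 and P 4 (-0.62 ± 0.18, adjusted p = 0.0415). Gnaz was also lower (-0.89 ± 0.16, adjusted p = 0.00545), but its second probe, GE1217582, differed by 0.23 ± 0.13. With plain background subtraction 3 were higher and 1 lower, where 3.7% of named genes were called. In the authors' processed values 7 were higher and 2 lower, beside 4.62% of named genes, and with median scaling 11 and 5, beside 19.4%. None of the 5 mGlu receptor probes was called in this comparison, which called 14% of all probes. Grm4 and Grm5 GE21551 had an unadjusted p under 0.05 (0.0345 and 0.0169 by limma). The share of all probes at that unadjusted threshold was not counted, so nothing about the receptors is read from these 2.

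Gna11, which like Gnaq couples mGlu5 to phospholipase C, was highest in P 1 and P 2 on both of its probes. The brighter, GE13503, read 8.87, 8.88, 8.09 and 8.09 in P 1 to P 4, against 8.16, 8.10 and 8.18 in NP 2 to NP 4. P 3 and P 4 thus lay just below the NP rats. The difference between the lines was 0.34 ± 0.21 (adjusted p = 0.54 by limma) over all arrays. In the fit with a term for scan date, whose line difference comes from P 1, P 2, NP 2 and NP 3, it was 0.74 (adjusted p = 0.0165). That fit called 5.59% of named genes.

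The second Gna11 probe, GE21735, read 8.28, 8.32, 7.90 and 7.81 in P 1 to P 4, against 7.76, 7.71 and 7.62 in NP 2 to NP 4. Here every P rat lay above every NP rat. The difference was 0.38 ± 0.15 (adjusted p = 0.395 by limma), and 0.56 (adjusted p = 0.0344) with the term for scan date. That last estimate came from the rats of date 1 alone.

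Rgs14, which shuts off Gi/o signalling, also had its highest values in P 1 and P 2. Its probe GE1100257 read 9.56, 9.63, 8.59 and 8.59 in P 1 to P 4, against 8.95, 8.92 and 9.11 in NP 2 to NP 4. The NP rats thus lay between the 2 pairs of P rats. The difference between the lines was 0.10 ± 0.26 (adjusted p = 0.899 by limma), and 0.65 (adjusted p = 0.024) with the term for scan date. The second Rgs14 probe, GE21068, differed by 0.23 ± 0.19 and, with that term, by 0.57 (adjusted p = 0.0595).

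Markers of cell types and regions were read as a check on the make-up of the samples. Of 54 tested markers, 0 were called between the lines by limma and 9 had an unadjusted p under 0.05, 3 higher and 6 lower in P, beside 11.4% of named genes. The smallest p was that of Aif1, a microglial gene, with 8.77, 8.21, 9.41 and 9.09 in P 1 to P 4 against 9.60, 9.85 and 9.59 in NP 2 to NP 4 (-0.81 ± 0.24, adjusted p = 0.302). With a term for scan date it was -1.23 (adjusted p = 0.0155). The other 6 microglial markers were not called, and the mean of all 7 was 8.84 to 8.95 in P and 8.84 to 9.06 in NP. The 7 astrocyte markers, from cells that also carry mGlu receptors, had means of 9.92 to 10.11 in P and 9.88 to 10.09 in NP. Of 52 markers with a value, 7 were called between the scan dates of the P rats, or 13.5%, near the 15.6% of all named genes. The part of cell make-up in the values of the receptors was not tested.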

How the data were processed

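RNA of 7 rats was hybridized to 1-colour arrays. Per the file headers, the deposited scanner tables hold, spot by spot, the mean intensity, a median for the surrounding background, a rescaled intensity and a flag. The authors' log2 table tracked the log2 rescaled intensities (Pearson r at least 0.9985); whether arrays were adjusted further is unknown. Scanner software and genome build: not given in the sources used here.

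Intensities were corrected with limma 3.58.1 (R 4.3.3; normexp, offset 50) and quantile normalized over transcript probes, control spots left out. Masked, irregular or contaminated spots were set to missing. Probes above background on at least 3 arrays were fitted with lmFit and eBayes, P against NP, with Benjamini-Hochberg adjustment. In a second fit the P rats were split by scan date. Names came from RefSeq accessions (GRCr8 table), with 1 probe per list gene, the brightest. The fit was tested on simulated data. Figures were drawn with matplotlib 3.10.9.

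Members and lists were chosen with earlier results of these data known. Named were all member probes, from each list up to 3 called genes or else that with the smallest p, and per member the gene with the highest correlation; other genes were named after their values were seen. As alternatives, the background correction, the scaling, the filter and the variance prior were changed, and the fit was repeated on the authors' values, with scan date or replicate number as a block, on date 1 alone, and without each array.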

Additional observations from a re-analysis of the deposited data

How the results depend on the processing

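None of the member probes was called under any of the 17 alternatives. The Grm6 and Grm7 estimates and that of Grm5 GE21551 kept their sign in all that gave a value. With 1 array left out, Grm4 ran from -0.06 (NP 4) to 0.20 and was -0.02 without P 2, Grm5 GE20272 ran from -0.01 (NP 4) to 0.17, and Dlst ran from -0.06 (NP 4) to 0.10 and was -0.01 without P 2. Of all probes, 51 were called in the authors' values, 49 among probes above background on every array, 1655 with the scan date block and 1870 on the arrays of date 1, against 84; leaving out 1 array gave 51 (NP 4) to 121 (P 3), with 53 without NP 3. Of the pathway genes, 4 were called with the date block (Gna11, Gnaz, Gng7 and Rgs14; 5.59% of named genes were), of which Gnaz differed by -0.56 and its second probe, GE1217582, by 0.38. There were 3 on date 1, where 6.37% of named genes were called, and 0 to 1 with an array left out (Sag, without NP 2). Of the markers, 3 were called with the block and 5 on date 1. The cause of these changes was not tested; the blocked fit and that of date 1 rest on the same 2 P and 2 NP arrays. Replicate numbers did not pair the rats, since deviations of same-numbered rats correlated by 0.0207 to 0.097 and no NP rat was most like the P rat of its number. With the replicate block 104 probes and 0 members were called, and the members' differences were 0.06 for Grm4, 0.02 for Grm5 GE20272, 0.35 for Grm5 GE21551, -0.33 for Grm6 and 0.19 for Grm7. The filter on all arrays left out Grm6 and Grm5 GE21551. Signal over background limits what can be said of Grm8, Grm6 and Grm5 GE21551.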
